A study of Mus musculus with 15 samples.

Results

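The C/EBP transcription factor family was followed by mRNA-seq in mouse fibroblasts during the first hours after a single unfolded protein was made to appear in the cells. The 5 genes Cebpa, Cebpb, Cebpd, Cebpg and Cebpz were taken by symbol from tables of 20207 RefSeq genes. Of these 5 genes, 4 had at least 1 read in every sample and entered the tests together with 10276 genes in all, and Cebpa did not. The members were chosen by name around Cebpd, which was itself selected on its low CPM at 135 min against control in these samples, so its own values are given as a description without a p-value, and the tests concern its relatives. Cebpe and Ddit3, the other genes of the family by name, are given for comparison, and Ddit3 was tested.

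All samples came from NIH3T3 cells, a mouse embryonic fibroblast line, stably expressing DD-sfGFP, which is superfolder GFP joined to a destabilizing domain (DD) made from FKBP. Binding of a small molecule, Shield-1 (S1), keeps the DD folded, and the DD unfolds when S1 is lost. There were 5 control samples at time 0 with no stress, in cells that carried the same fusion protein and, per the study's methods, were kept in S1, and 3, 3 and 4 samples collected 45, 135 and 405 min after S1 removal. Per the same methods, the fusion was integrated with a transposon, cells with high GFP were pooled by sorting, and S1 was removed by adding purified FKBP protein to the medium. A sample that received the FKBP protein without a DD in the cells was not analysed here, so the added protein, the time in culture and the unfolded DD cannot be told apart in these samples. By quantitative PCR, the paper found no significant change in the transcripts it measured after S1 withdrawal from cells with GFP alone. The labels do not say that replicates were separate cultures, and p-values therefore measure the spread between these samples, which may be technical.

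Members of the C/EBP family are basic leucine zipper (bZIP) proteins that bind DNA as dimers with one another or with other bZIP proteins. Cebpb and Cebpd respond early to cytokines, cyclic AMP and glucocorticoids, take part in acute phase gene expression and precede Cebpa and Pparg when fibroblast-like cells become fat cells. Cebpg is a short member that lacks a strong activation domain and pairs with the stress factor Atf4, Ddit3 (CHOP) is a partner induced by endoplasmic reticulum stress, and Cebpz shares the name but is a nucleolar protein of the Noc family outside the bZIP group.

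Total counts ranged from 6652539 to 30258404 per library, and control 3 was the shallowest. CPM also varied with transcript GC content, more steeply in some libraries than in others. The widest gap in this slope separated 5 libraries (library set 2) from 10 (library set 1), although it was nearly matched by the next gap, 0.284 against 0.281 log2 CPM per 10 percentage points of GC. Set 2 held control 2, replicate 3 at 45 min and replicates 1, 2 and 4 at 405 min, and no library at 135 min. Cebpb and Cebpd are among the most GC-rich transcripts, at 67.2% and 63.0% exonic GC against a median of 49.1%, while Cebpg (43.6%) and Cebpz (43.4%) lie below that median. The Cebpd value comes from a GENCODE vM1 pseudogene model of 1180 exonic bases. That model is shorter than the deposited span of the gene and may not cover the whole counted transcript. All 10 fibroblast markers were detected in every library, and the summed CPM (counts scaled to a common library total, with TMM scaling) of 14 markers of other cell types lay between 0.978 and 6.62 per library, against 12600 to 20100 for the fibroblast markers. The fibroblast sum lay between 12600 and 17900 CPM at 405 min and between 16100 and 20100 CPM in the controls. At 405 min 5 of the 10 markers were lower and 0 higher (edgeR, adjusted p under 0.05), beside 13.4% lower and 9.99% higher of all tested genes. With 1 library left out in turn 3 to 5 of the markers were lower. The part of these markers in the results was not tested. In bulk RNA, fewer expressing cells and less RNA per cell cannot be told apart.

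Promoters of Cebpb and Cebpg are shown because both transcripts were lower at 405 min, as given further on. They are the 250 bases before the annotated start site in RefSeq (GRCm38.p6), at chr2:167688665-167688914 on the plus strand and chr7:35056567-35056816 on the minus strand, and are written 5′ to 3′. Capitals in the Cebpb sequence mark the letters TGACG, the core of the cyclic AMP response element, or their reverse complement, and capitals in the Cebpg sequence mark the CCAAT box or its reverse complement.
Cebpb: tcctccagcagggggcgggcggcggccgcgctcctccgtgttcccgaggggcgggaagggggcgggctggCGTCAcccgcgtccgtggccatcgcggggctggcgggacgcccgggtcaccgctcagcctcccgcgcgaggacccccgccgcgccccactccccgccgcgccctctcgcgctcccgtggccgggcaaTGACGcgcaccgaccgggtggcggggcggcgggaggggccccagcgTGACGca
Cebpg: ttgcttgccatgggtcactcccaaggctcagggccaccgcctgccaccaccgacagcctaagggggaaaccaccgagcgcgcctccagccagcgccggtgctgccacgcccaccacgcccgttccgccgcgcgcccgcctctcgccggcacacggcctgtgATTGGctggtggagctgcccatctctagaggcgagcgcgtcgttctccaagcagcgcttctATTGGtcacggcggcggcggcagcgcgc

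The Cebpb window held 3 TGACG matches, beginning 180, 53 and 7 bases before the start site, and no CCAAT. The Cebpg window held 2 CCAAT matches, 89 and 28 bases before the start site, both on the opposite strand, and no TGACG. On either strand, TGACG was present in 17.8% of 32851 mouse promoters of this length and CCAAT in 33.8%. The Cebpb window also held 5 GC boxes (GGGCGG, in 32.7% of promoters), and its GC content was 81.6% against 70.8% for Cebpg. These matches describe letters and are not evidence of a bound site. Of the other names, Cebpd, Cebpz and Cebpe had no entry in the promoter table.

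Cebpd was the member with the lowest values relative to control at every time point. Cebpd, which encodes C/EBPδ (mm9 chromosome 16, 15887379 to 15889638, a pseudogene by GENCODE vM1), was measured at 113, 68.0, 223, 109 and 105 CPM in control replicates 1 to 5. At 45 min it was at 57.1, 63.1 and 57.6 CPM, at 135 min at 15.7, 13.0 and 15.5 CPM, and at 405 min at 28.8, 25.3, 20.4 and 23.8 CPM. The 4 groups did not overlap at any point: all 45-min samples lay below the lowest control, all 135-min samples below every other sample, and all 405-min samples between those of 45 and 135 min. Of all tested genes, 0.448% had every 45-min sample below every control, with 4.75% at 135 min and 6.43% at 405 min. The separation at 135 min comes from the values on which Cebpd was chosen. Those at 45 and 405 min are set against the same controls, which also entered the choice, and are descriptions. Control 3 was well above the other controls and control 2, of library set 2, was the lowest.

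On the log2 scale Cebpd differed from control by -1.06 (SE 0.285) at 45 min, -3.06 (SE 0.318) at 135 min and -2.33 (SE 0.272) at 405 min. These differences correspond to levels 2.08-fold, 8.36-fold and 5.01-fold lower. Only 1 of the 10276 tested genes had a lower log2 difference at 135 min, whereas Cebpd held rank 173 from the lowest at 45 min and rank 42 at 405 min. The rank at 135 min restates the choice of Cebpd on that comparison and is not evidence. The ranks at 45 and 405 min share the controls of that comparison and are descriptions. Without control 3 the difference at 135 min was -2.74 and that at 405 min was -2.03. Cebpd was higher at 405 min than at 135 min by 0.74 (SE 0.295), and 19.2% of all tested genes had every 405-min sample above every 135-min sample. The 135-min values in this difference are those on which Cebpd was chosen for being low. The difference is therefore a description and not evidence of a return towards control.

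The difference of Cebpd from control at 405 min was not the same within the 2 library sets, and the cause was not tested. Within set 1 Cebpd differed from control by -3.21 at 135 min and by -2.75 at 405 min, where 1 sample remained. Within set 2 the 3 samples at 405 min averaged 26.0 CPM against 68.0 CPM in the single control, a difference of -1.40, and the single 45-min sample differed from that control by -0.24. With an offset for GC content the difference at 405 min was -3.10 and that between 405 and 135 min was 0.092, smaller than the 0.74 without it.

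**Figure D1:**
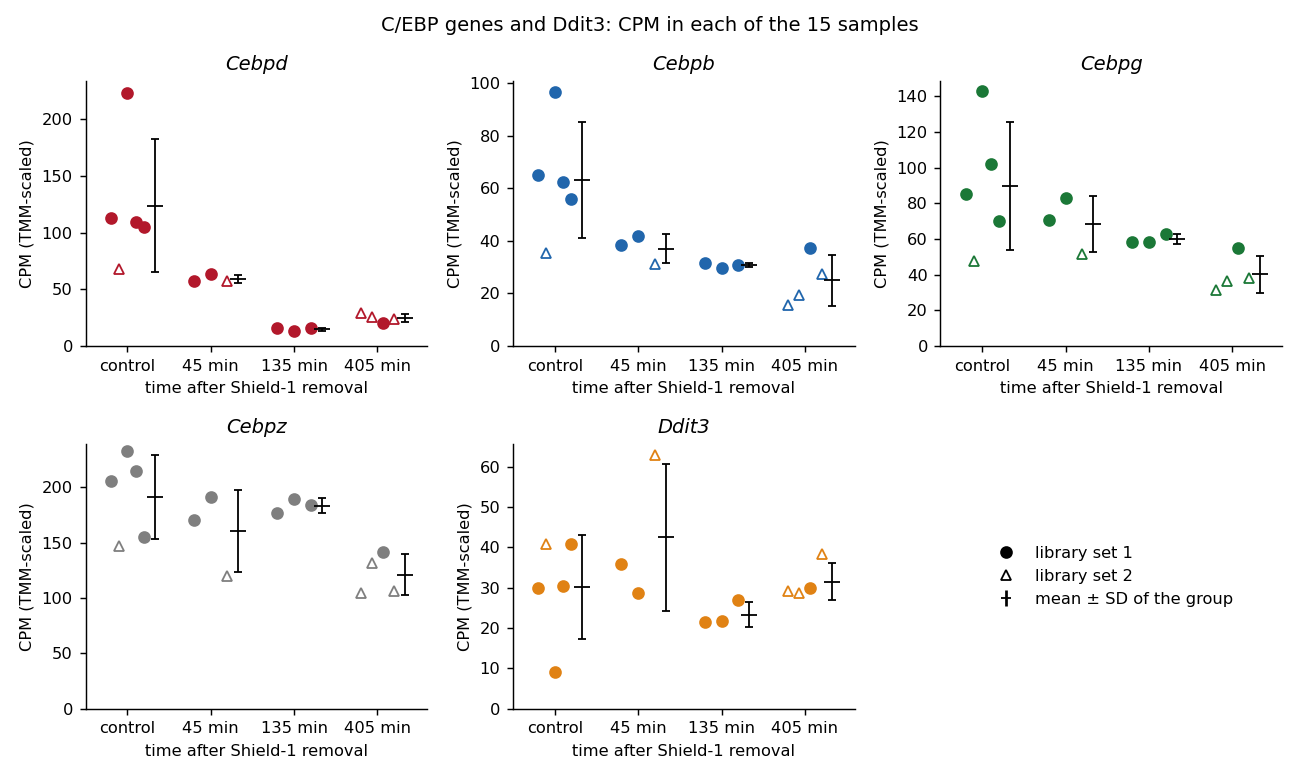
Each point is 1 sample and gives the TMM-scaled CPM (linear axis from 0) of Cebpd, Cebpb, Cebpg, Cebpz or Ddit3 in the control group and 45, 135 and 405 min after S1 removal, with filled circles for library set 1, open triangles for library set 2 and the mean ± SD of the group beside the points. Cebpd lay at 13.0 to 15.7 CPM at 135 min against 68.0 to 223 CPM in the controls, whereas Cebpz at 135 min (177 to 190 CPM) lay within its control range (147 to 233 CPM).

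Cebpb, which acts with Cebpd in adipogenic and acute phase responses, had its largest difference from control at 405 min in the fit of all 15 samples. Within library set 1 its difference was larger at 135 min than at 405 min. Cebpb (mm9 chromosome 2, 167514415 to 167515918) was measured at 65.0, 35.3, 96.7, 62.3 and 55.9 CPM in control replicates 1 to 5. It was at 38.3, 41.7 and 31.2 CPM at 45 min, at 31.4, 29.8 and 31 CPM at 135 min and at 15.6, 19.6, 37.3 and 27.4 CPM at 405 min. Control 2 was again the lowest control, and all 3 samples at 135 min lay below it. At 405 min replicate 3, the only one of library set 1, lay above control 2 and the other 3 samples lay below all controls.

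At 45 min no gene of the 10276 passed an adjusted p of 0.05 (percent called 0, against 365 genes or 3.55% at an unadjusted p under 0.05 and 6 genes in DESeq2), and the log2 difference of Cebpb was -0.76 (SE 0.302, edgeR adjusted p = 0.698). At 135 min it was -1.03 (SE 0.305, edgeR adjusted p = 0.14), which did not pass. At that time point 1.46% of all tested genes passed in either direction and 0.895% were lower, and 4.75% had every sample below every control as Cebpb did. Cebpb passed at 135 min with DESeq2 (adjusted p = 0.0299), with library set as a covariate (-1.14, adjusted p = 0.00441), within set 1 (-1.18, adjusted p = 0.00908) and without control 2 (-1.18, adjusted p = 0.0287).

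At 405 min Cebpb fell by 1.33 on the log2 scale (SE 0.28, edgeR adjusted p = 0.00542), a level 2.52-fold lower than control. This was 1 of 3 members other than Cebpd that fell at 405 min, when 23.4% of all tested genes passed in either direction and 13.4% were lower. Within set 1 (-0.91, adjusted p = 0.152) and within set 2 (-0.76, adjusted p = 0.155) Cebpb did not pass. The difference between 405 and 135 min was -0.30 (SE 0.307, edgeR adjusted p = 0.524) and its sign changed to 0.21 with library set as a covariate.

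Cebpg, the short partner of Atf4, was also lower at 405 min. Cebpg (mm9 chromosome 7, 35831441 to 35841585) was measured at 85.4, 47.7, 143, 102 and 69.9 CPM in control replicates 1 to 5 and at 70.9, 82.8 and 51.4 CPM at 45 min. It was at 58.3, 58.5 and 63.0 CPM at 135 min and at 31.5, 36.3, 55.1 and 38.1 CPM at 405 min. As for Cebpb, the 405-min sample of library set 1 was the highest of its group and lay above control 2, and the 3 samples of set 2 lay below every control.

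The log2 difference of Cebpg from control was -0.39 (SE 0.29, edgeR adjusted p = 0.698) at 45 min and -0.58 (SE 0.292, edgeR adjusted p = 0.461) at 135 min. At 405 min Cebpg fell by 1.15 (SE 0.271, edgeR adjusted p = 0.00999), or 2.23-fold. All 4 samples at 405 min lay below all 3 at 135 min, with a difference of -0.58 (SE 0.298, edgeR adjusted p = 0.217), where 17.6% of all tested genes had groups separated in this direction and 5.06% passed in either direction. Neither set alone gave a fall that passed at 405 min (-0.87, adjusted p = 0.22 in set 1, and -0.44, adjusted p = 0.328 in set 2), and with library set as a covariate Cebpg passed at 135 min (-0.68, adjusted p = 0.041).

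Cebpz, the nucleolar CCAAT-binding protein, was near its control level at 135 min and lower at 405 min. Cebpz (mm9 chromosome 17, 79318343 to 79336410) was measured at 206, 147, 233, 215 and 155 CPM in control replicates 1 to 5 and at 171, 191 and 120 CPM at 45 min. At 135 min it was at 177, 190 and 184 CPM and at 405 min at 105, 132, 142 and 106 CPM. Every sample at 405 min lay below every control, as for 6.43% of all tested genes, while the 45-min and 135-min samples overlapped the controls.

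The log2 difference of Cebpz was -0.25 (SE 0.19, edgeR adjusted p = 0.698) at 45 min and -0.06 (SE 0.188, edgeR adjusted p = 0.946) at 135 min. At 405 min Cebpz fell by 0.66 (SE 0.175, edgeR adjusted p = 0.0184), or 1.58-fold. This call did not pass with library set as a covariate (-0.40, adjusted p = 0.0685), within set 1 (adjusted p = 0.255) or set 2 (adjusted p = 0.428), in a fit of the controls and 405-min samples alone (adjusted p = 0.055), or without replicate 1 (adjusted p = 0.0669) or replicate 4 (adjusted p = 0.0681) at 405 min. Against 135 min the difference at 405 min was -0.60 (SE 0.195, edgeR adjusted p = 0.0802), with all 405-min samples below all 135-min samples, and it passed without control 2 (adjusted p = 0.0423), control 3 (adjusted p = 0.0495) or replicate 3 at 405 min (adjusted p = 0.049).

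**Figure D2:**
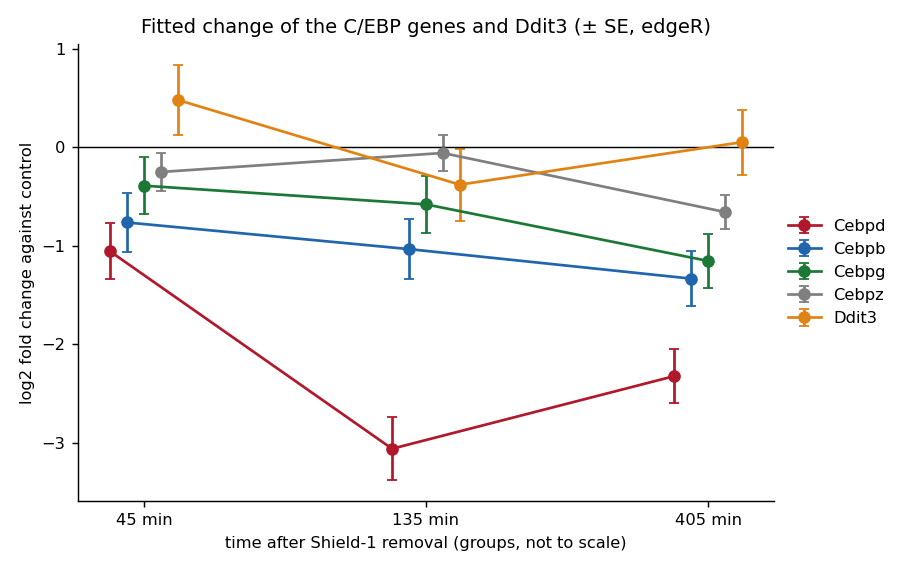
The vertical axis is the fitted log2 fold change against control (edgeR, 15 samples) and the bars are its SE, at 45, 135 and 405 min after S1 removal, with 1 line per gene and the time points evenly spaced. Cebpd reached -3.06 at 135 min and -2.33 at 405 min, while Cebpb and Cebpg had their lowest value at 405 min (-1.33 and -1.15) and Ddit3 differed by at most 0.48.

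Cebpa, the factor of later adipocyte differentiation, was at the edge of detection throughout. Its deposited read count was between 0 and 3.998 per library, 0.697 CPM at most, against a floor of 3 counts, so no fold change is given. Exact two-sided permutation tests of its log2(CPM + 1) over samples gave p = 1, p = 0.929 and p = 0.873 for 45, 135 and 405 min against control. Cebpe, the myeloid member, had at most 2 counts in any library and 0 in all 3 libraries at 135 min. A difference of either gene was not detectable at this depth. Pparg, which acts with Cebpa in adipocytes, was likewise not tested, with 0 to 40 counts per library.

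Ddit3 (mm9 chromosome 10, 126727849 to 126733344), the C/EBP partner of the endoplasmic reticulum stress response, did not pass the test at any time. It was measured at 29.9, 40.8, 9.24, 30.5 and 40.9 CPM in control replicates 1 to 5, at 35.8, 28.6 and 63.0 CPM at 45 min, at 21.5, 21.7 and 26.9 CPM at 135 min and at 29.1, 28.6, 30.0 and 38.4 CPM at 405 min. Each group overlapped the controls, whose lowest sample was control 3. The log2 difference was 0.48 (SE 0.357, edgeR adjusted p = 0.698) at 45 min, -0.38 (SE 0.366, edgeR adjusted p = 0.736) at 135 min and 0.05 (SE 0.332, edgeR adjusted p = 0.91) at 405 min.

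At 135 min Cebpd held a smaller and Cebpz a larger part of the family's transcripts than in the controls. Because Cebpd was chosen on its low CPM at 135 min, its smaller share at that time follows from the choice and is a description. A share of a sum also rises when other members are lower, and Cebpz itself differed from control by only -0.06 on the log2 scale at 135 min. Levels of different genes were compared per length, as deposited RPKM (reads scaled by transcript length and sequencing depth), and only within a sample, because the depth total behind the RPKM was 1.78 to 3.51 times the summed gene counts depending on the library. In the controls Cebpd had the highest mean RPKM (22.3 ± 3.7, SD, n = 5), followed by Cebpz (20.4 ± 4.03) and Cebpb (17.6 ± 3.35), then by Cebpg (7.92 ± 1.65) and Cebpa (0.0153 ± 0.0282). Within samples Cebpd lay above Cebpb in 5 of 5 controls, whereas Cebpz lay above Cebpd in 3 of 5 and above Cebpb in 4 of 5, and Cebpg was below those 3 genes in each control. At 135 min the order was Cebpz (23.1 ± 1.06, SD, n = 3), Cebpb (10.5 ± 0.176), Cebpg (6.54 ± 0.264) and Cebpd (3.34 ± 0.304), and each of the 3 samples had this order. At 405 min it was Cebpz (14.7 ± 3.16, SD, n = 4), Cebpb (8.22 ± 3.32), Cebpd (5.3 ± 0.636) and Cebpg (4.22 ± 1.21). Within these samples Cebpz was the highest and Cebpb lay above Cebpg in 4 of 4, while Cebpb lay above Cebpd in 3 of 4 and Cebpd above Cebpg in 3 of 4.

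Cebpd made up 30.8%, 30.2%, 39.3%, 29.3% and 34.1% of the summed RPKM of the 5 members in control replicates 1 to 5. Its share was 23.4%, 23.2% and 29.4% at 45 min, 8.29%, 6.8% and 7.98% at 135 min and 22.9%, 17.4%, 11.2% and 16.7% at 405 min. The shares at 135 and 405 min lay below every control. The share of Cebpz was 30.0% ± 5.03 (SD, n = 5) in controls, 53.1% ± 1.72 at 135 min (n = 3) and 45.3% ± 3.96 at 405 min (n = 4), and those of Cebpb (25.7% ± 1.44 and 24.1% ± 0.764) and Cebpg (11.5% ± 1.2 and 15% ± 0.493) were closer to each other in controls and at 135 min.

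Against Cebpb alone, which shares its high GC content, Cebpd made up 55.9% ± 2.8 (SD, n = 5) of the RPKM of the pair in controls, with 51.7% ± 2.95 at 45 min, 24.2% ± 1.44 at 135 min and 41.1% ± 12.2 at 405 min. The ratio of Cebpd to Cebpb was 1.15 to 1.53 in controls and 0.291 to 0.333 at 135 min. The 4 samples at 405 min ranged from 26.7% in the sample of library set 1 to 55.1% in replicate 1 of set 2, so they spanned most of the range between 135 min and control. The difference between 405 min and control was -14.8 percentage points over all samples, -29.2 within set 1 and -10.2 within set 2.

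**Figure D3:**
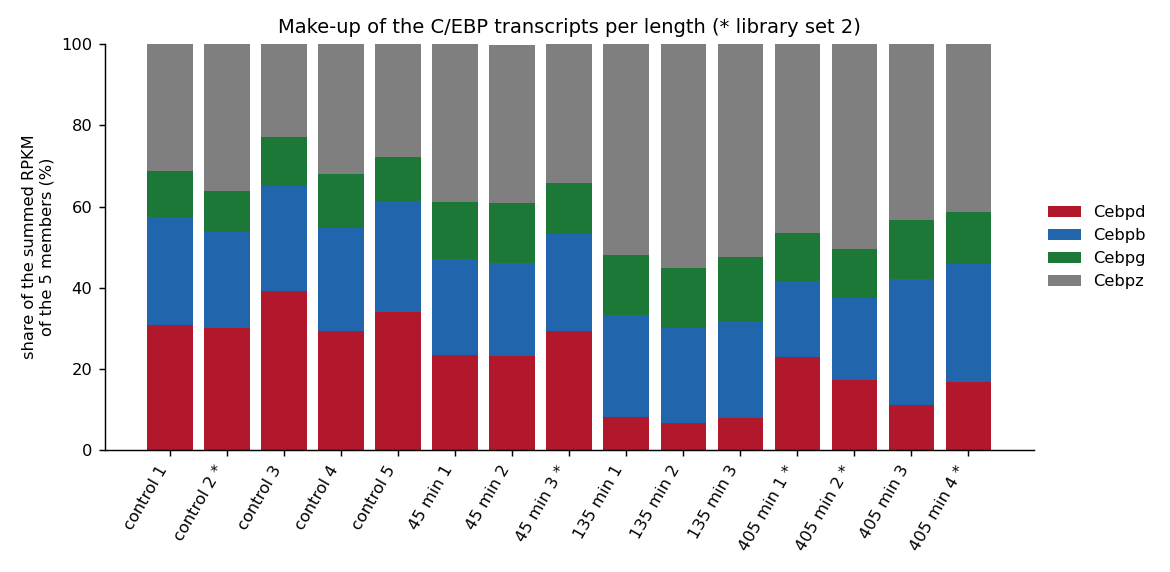
Each bar is 1 sample (asterisk: library set 2), and the stacked colours give the share in % of the summed RPKM of the 5 members held by Cebpd, Cebpb, Cebpg and Cebpz, with Cebpa (at most 0.105%) too small to draw. Cebpd held 29.3% to 39.3% in the controls and 6.8% to 8.29% at 135 min, where Cebpz held 51.9% to 55.1%.

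Genes on the opposite strand overlap several of these transcripts, and the strand used in counting was not given in the sources used here, so their reads cannot be told apart in the shared bases. Tmem189 shares 908 bases with Cebpb and did not pass at 135 min (0.21, edgeR adjusted p = 0.823) or 405 min (0.47, edgeR adjusted p = 0.157). The gene 2310008H04Rik shares 319 bases with Cebpd and did not pass at 135 min (-0.07, edgeR adjusted p = 0.939) or 405 min (-0.46, edgeR adjusted p = 0.0833). Cebpz shares 2035 bases with 1110001A16Rik, whose values were not analysed here, and Ddit3 shares 68 bases with Mars (0.07 at 135 min, edgeR adjusted p = 0.919).

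The genes whose pattern was most like that of Cebpd were sought by Pearson correlation of log2 CPM over the 15 samples, as a description. The highest were Fgfr2 (0.958), a fibroblast growth factor receptor, Pcdh18 (0.955), a protocadherin, Smad6 (0.952), an inhibitor of BMP signalling, Foxf2 (0.945), a forkhead factor of mesenchyme, Myc (0.945) and Kcna4 (0.944), a potassium channel. Cebpb followed at rank 155 of 10275 (0.773), Cebpg at 442 (0.668), Cebpz at 2341 (0.401) and Ddit3 at 5566 (-0.104). The points share their libraries, their depth and their GC dependence. When only the 10 samples of set 1 were used, 1 of the 6 genes stayed among the top 6 (Foxf2), and the correlation of Cebpb was 0.942 and that of Cebpg 0.87.

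Kcna4 and Smad6 were the most reduced of these 6 genes at 135 min. Kcna4 went from 48.3 CPM ± 28.0 (SD, n = 5) in controls to 10.5 ± 0.517 at 135 min (n = 3) and 9.72 ± 1.76 at 405 min (n = 4), and Smad6 from 9.07 ± 2.65 to 2.24 ± 0.678 and 2.59 ± 1.14. Myc, the growth-promoting transcription factor, went from 168 ± 52.5 to 57.1 ± 5.09 and 75.7 ± 14.3 CPM. Because likeness to Cebpd chose these genes, no test of them is given. Each of the 6 was at a lower mean at 135 and 405 min than in controls.

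**Figure D4:**
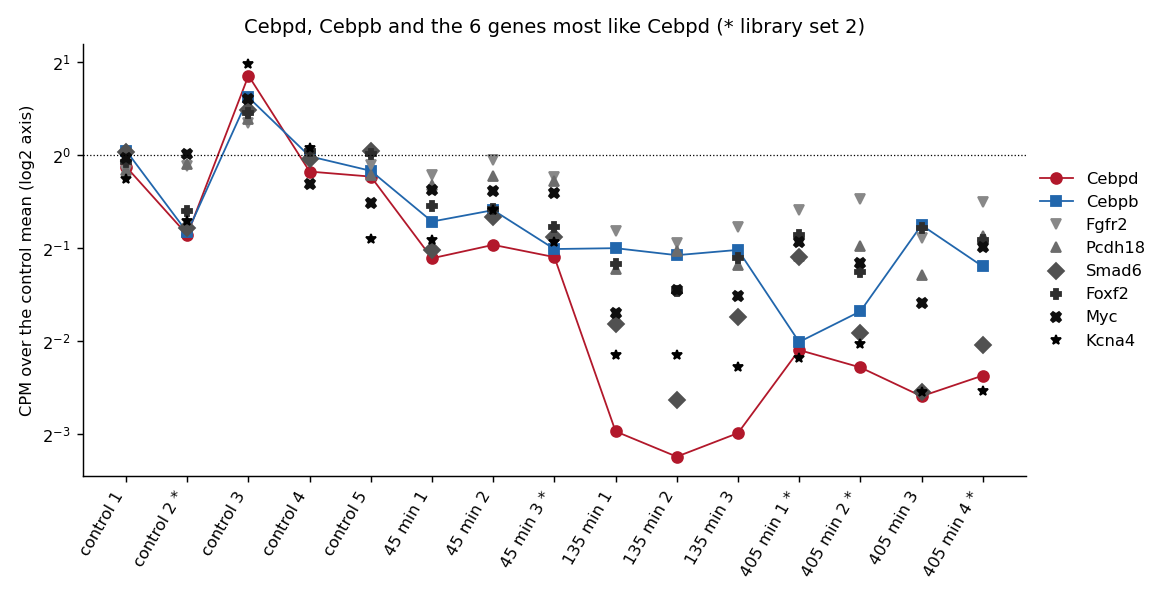
The vertical axis (log2-spaced) gives the CPM of each sample over the mean of the 5 controls for Cebpd, Cebpb and the 6 genes most like Cebpd over the 15 samples (asterisk: library set 2). All 8 genes are high in control 3, and at 135 min Cebpd lies below the others while Cebpb stays near the level it had at 45 min.

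At 135 min 0.564% of all tested genes passed as higher and 0.895% as lower, and at 405 min 9.99% passed as higher and 13.4% as lower. Genes that act with, upstream or downstream of the family were read from lists, and their counts stand beside these shares. These calls depended on single libraries and on library set. Of the 8 genes named below for a call at 135 min, 8 passed with library set as a covariate, 8 within set 1 and 8 with DESeq2, but 0 passed when any 1 of the 3 libraries at 135 min was left out. Of the 24 named for a call at 405 min, 20 passed with library set as a covariate, 2 within set 1, 7 within set 2 and 15 without replicate 4 at 405 min.

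Of 13 tested bZIP partners, 1 was lower at 135 min and 2 at 405 min, with list medians of -0.357 and -0.155 against -0.059 and -0.001 for all tested genes. With 1 library left out in turn 0 to 2 of these partners passed at 135 min and 1 to 5 at 405 min, the most without control 2. Nfil3, a bZIP repressor, fell by 1.31 at 135 min (SE 0.277, edgeR adjusted p = 0.0296) and by 0.86 at 405 min (adjusted p = 0.0251), from 12.5 CPM ± 3.42 (SD, n = 5) to 5.02 ± 1.33 (SD, n = 3) and 6.9 ± 0.536 (SD, n = 4). Atf4, the partner of Cebpg, differed by 0.14 at 135 min (edgeR adjusted p = 0.671) and fell by 0.45 at 405 min (adjusted p = 0.00907), from 424 CPM ± 27.7 to 311 ± 17.1.

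Among 21 tested inputs to Cebpd and Cebpb (IL-6 type cytokine receptors, STAT and CREB components), 1 was lower at 135 min, and 3 were higher and 3 lower at 405 min. Nr4a1, an immediate-early target of CREB, fell by 1.60 at 135 min (edgeR adjusted p = 0.0113) and fell by 1.555 at 405 min (adjusted p = 0.00133), from 26.3 CPM ± 8.76 (SD, n = 5) to 8.7 ± 1.51 (SD, n = 3) and 8.98 ± 1.29 (SD, n = 4). Osmr, the oncostatin M receptor, differed by -0.56 at 135 min (edgeR adjusted p = 0.387) and fell by 2.06 at 405 min (adjusted p = 0.000111), from 110 CPM ± 38.8 to 26.4 ± 1.96. Stat3, the factor downstream of these receptors, fell by 0.48 at 405 min (edgeR adjusted p = 0.0162) and Crtc2, a coactivator of CREB, rose by 1.20 (adjusted p = 0.0257), which did not pass with library set as a covariate (0.62, adjusted p = 0.0827). Socs3, the feedback inhibitor, did not pass (-0.65 and 0.17, edgeR adjusted p = 0.532 and 0.719), and Il6 had 0 to 30 counts per library and was not tested. Without control 2, 6 of the 21 inputs were higher and 5 lower at 405 min, without replicate 2 or replicate 4 at 405 min 2 were lower and 0 higher, and with library set as a covariate 3 passed, all lower.

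Of 9 tested genes of the glucocorticoid receptor list, 2 were lower at 135 min and 3 at 405 min and none was higher, with medians of -0.70 and -0.38. Sgk1, a kinase induced by glucocorticoids, fell by 1.14 at 135 min (edgeR adjusted p = 0.028) and by 0.94 at 405 min (adjusted p = 0.00844), from 437 CPM ± 107 (SD, n = 5) to 198 ± 0.839 (SD, n = 3) and 227 ± 47.4 (SD, n = 4). Errfi1, an inhibitor of the EGF receptor, fell by 1.28 at 135 min (edgeR adjusted p = 0.0271) and differed by -0.37 at 405 min (adjusted p = 0.237). The receptor Nr3c1 fell by 0.59 (edgeR adjusted p = 0.006) and its cochaperone Fkbp5 by 0.73 (adjusted p = 0.00908) at 405 min. With 1 library left out 0 to 3 genes of the list passed at 135 min, all lower, and without control 2 there was 1 higher beside 3 lower at 405 min.

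Regulators of C/EBP protein level and isoform had 13 tested genes, of which 1 was lower at 135 min and 1 was higher and 2 lower at 405 min. Trib2, a pseudokinase that directs C/EBPα to degradation, fell by 0.71 at 135 min (edgeR adjusted p = 0.0327) and by 0.99 at 405 min (adjusted p = 0.000434), from 63.0 CPM ± 6.83 (SD, n = 5) to 38.4 ± 5.51 (SD, n = 3) and 31.7 ± 2.59 (SD, n = 4). The RNA-binding protein gene Celf1, listed as Cugbp1, fell by 0.81 (edgeR adjusted p = 0.0115) and calreticulin, Calr, rose by 1.32 (adjusted p = 0.0343) at 405 min. Calr followed library set, with 1030 CPM in control 2 against 267 to 522 in the other controls, and with 618 CPM in the 405-min sample of set 1 against 1240 to 1680 in those of set 2. Its difference was 0.62 (adjusted p = 0.0466) with library set as a covariate, 0.74 within set 1 (adjusted p = 0.258) and 0.49 within set 2 (adjusted p = 0.363). Without control 2 the list had 5 genes higher and 4 lower at 405 min, and without control 3 it had 0 higher and 3 lower.

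In the adipogenic cascade, 15 genes other than the members were tested, of which 1 was lower at 135 min and 1 was higher and 6 lower at 405 min. The list was not limited to genes that act after the members or that promote adipogenesis, so these counts give no direction for the cascade. The Krüppel-like factor Klf2 fell by 1.56 at 135 min (edgeR adjusted p = 0.0488) and by 1.36 at 405 min (adjusted p = 0.0119), and Klf4 differed by -1.02 at 135 min (edgeR adjusted p = 0.0888) and fell by 1.34 at 405 min (adjusted p = 0.00254). Egr2, which precedes Cebpb in adipogenesis, fell by 1.61 (edgeR adjusted p = 0.0224) and Ebf1, an early adipogenic factor, by 0.76 (adjusted p = 0.0167) at 405 min. At 405 min Klf2 did not pass with library set as a covariate (-0.82, adjusted p = 0.0714) or within set 2 (-0.45, adjusted p = 0.564), and Ebf1 did not pass with the GC offset (-0.44, adjusted p = 0.132). With the GC offset 0 genes of the cascade passed at 135 min and 5 at 405 min, all lower, and with library set as a covariate 0 were higher and 4 lower at 405 min. Without control 2 there were 5 higher and 7 lower at 405 min, and without replicate 4 at 405 min 2 passed, both lower.

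Of 20 acute phase and inflammatory targets 9 were tested, and 1 was higher and 1 lower at 135 min, and 2 were higher and 4 lower at 405 min. Ptx3, a secreted pentraxin, fell by 1.81 at 135 min (edgeR adjusted p = 0.0175) and by 2.27 at 405 min (adjusted p = 0.000405), from 55.8 CPM ± 31.7 (SD, n = 5) to 15.9 ± 2.74 (SD, n = 3) and 11.5 ± 1.39 (SD, n = 4). Il1rl1, the IL-33 receptor, fell by 0.80 at 405 min (edgeR adjusted p = 0.000497), and Tnfaip6, a hyaluronan-binding protein, fell by 1.24 (adjusted p = 0.0104). Ptgs2, the inducible cyclooxygenase, rose by 0.74 at 405 min (edgeR adjusted p = 0.017). With the GC offset Tnfaip6 did not pass (-0.76, adjusted p = 0.0597), and within set 2 Ptgs2 differed by 0.13 (adjusted p = 0.838). With 1 library left out 0 to 5 genes of the list passed at 135 min and 3 to 6 at 405 min, and the median of the list was 0.29 at 135 min and -0.55 at 405 min.

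The Atf4 target list, relevant to Cebpg and Ddit3, had 14 tested genes, of which 1 was higher at 135 min and 3 were higher and 2 lower at 405 min. Slc7a11, the cystine transporter, rose by 2.11 at 135 min (edgeR adjusted p = 0.0478) and by 3.09 at 405 min (adjusted p = 0.000847), from 7.32 CPM ± 4.01 (SD, n = 5) to 32.5 ± 6.42 (SD, n = 3) and 64.0 ± 14.1 (SD, n = 4). Sesn2, a stress-induced sestrin, differed by 1.80 at 135 min (edgeR adjusted p = 0.161) and rose by 1.70 at 405 min (adjusted p = 0.031), and Chac1, a glutathione-degrading enzyme, fell by 1.04 (adjusted p = 0.0214). With library set as a covariate Sesn2 passed at 135 min (2.385, edgeR adjusted p = 1.23e-05) and did not pass at 405 min (0.76, adjusted p = 0.0502). At 405 min the list had 1 gene higher and 3 lower with library set as a covariate, and 6 higher and 3 lower without control 2. At 135 min the call of 1 gene was absent in 13 of the 15 fits with 1 library left out.

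For Cebpz, 10 genes of the Noc complex, its ribosome assembly neighbours and NF-Y, the main CCAAT-binding factor, were tested. None passed at 135 min, and at 405 min 1 was lower and none was higher, with medians of 0.13 and 0.16. Noc3l, the Noc family relative, differed by -0.02 at 135 min (edgeR adjusted p = 0.975) and fell by 0.56 at 405 min (adjusted p = 0.0267), close to the 0.66 by which Cebpz fell. Nfya did not pass (0.12 and -0.27, edgeR adjusted p = 0.885 and 0.316). Without control 2, 5 genes of this list were higher and 1 lower at 405 min, and without replicate 3 at 405 min 2 were higher and 1 lower. With library set as a covariate no gene of it passed at either time, and Noc3l was at -0.39 (adjusted p = 0.13) at 405 min.

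**Figure D5:**
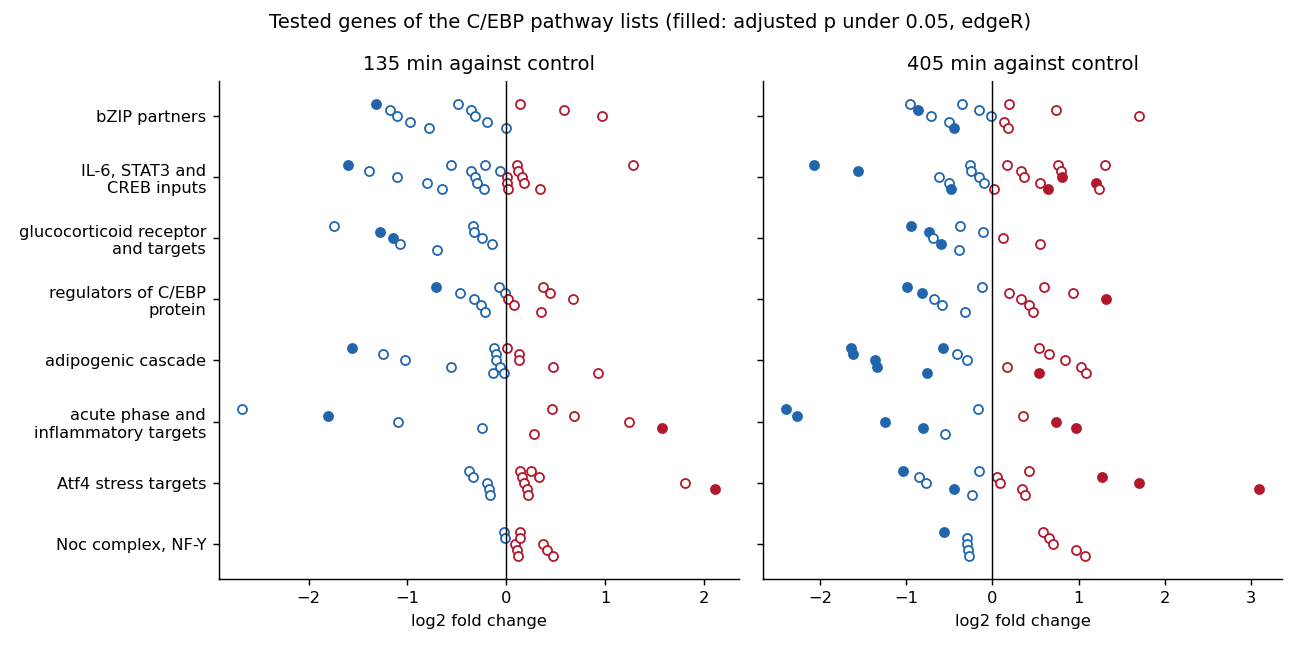
Each point is 1 tested gene of 8 lists, placed by its log2 fold change at 135 min (left) or 405 min (right) against control (horizontal axis), with filled points for an edgeR adjusted p under 0.05, blue for lower and red for higher, and the C/EBP members left out. The lists of bZIP partners, of the glucocorticoid receptor and of the Noc complex and NF-Y hold only blue filled points. The glucocorticoid list holds 2 at 135 min and 3 at 405 min, while 5 of the lists hold filled points of both colours at 405 min.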

How the data were processed

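Poly(A) RNA was sequenced in 15 samples of NIH3T3 cells expressing DD-sfGFP, and group and replicate number were read from the sample titles. Per the study's methods, the authors aligned reads to mm9 (the build also named in the submitters' processing notes) and quantified them against RefSeq genes on the DNAnexus platform. The aligner and the strand used in counting were not given in the sources used here. The authors deposited expected counts (estimated counts that need not be whole) and RPKM per gene. Expected counts were rounded and tested, whereas the RPKM deposited by the authors served only to compare genes within a sample. A Z score and an RMS-scaled RPKM column were left out. The design had assumed whole counts and the test was kept.

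The 10276 of 20207 genes that had no zero in any sample (a minimum of 1 count) were analysed in edgeR 4.0.16 (R 4.3.3) with TMM factors, 1 quasi-likelihood model of group over all 15 samples, glmQLFTest and Benjamini-Hochberg adjustment over all tested genes at a threshold of 0.05. SE is the log2 fold change over the square root of F. CPM uses TMM-scaled totals, and correlations use log2 CPM with a prior count of 2. Genes under the count filter were compared by exact two-sided permutation tests on log2(CPM + 1). The fit was tested on simulated data. Floors of 3 counts cover counting error only. The 22 replicate pairs differed beyond sampling noise (chi-square per degree of freedom 12 or more). Library sets were defined by the slope of log2 CPM on exonic GC (GENCODE vM1, NCBIM37, known for 95.8% of tested genes), splitting at the widest gap. The labels name a NuGEN kit for each of the 15 samples, whereas the methods describe a random-primed protocol assembled from separate reagents beside a NuGEN kit. These sources conflict, and the relation of the library sets to either protocol was not tested.

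The members and lists were chosen with earlier results of these data known. Named genes are the 5 members, Cebpe and Ddit3, the 6 genes most correlated with Cebpd, up to 4 genes of each list with the lowest adjusted p among those past the threshold, and defining genes of the lists. Fits with DESeq2 1.42.0, other scaling, no filter, a GC offset, library set as covariate or within sets, a replicate block and each library left out in turn were the alternatives. Replicate numbers did not pair the samples (mean correlation of same-numbered deviations -0.11 over 19 pairs, 4 of them over 0.1). Counts for lists, named list genes and Cebpd shares under other settings were chosen after seeing the data.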

Additional observations from a re-analysis of the deposited data

Results flagged for a closer look

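Among 10 group-by-gene sets of 4 or 5 samples in which the highest and lowest sample were tested against the rest, 2 held a sample that stood apart by Dixon's criterion, which chance passes in about 1 of 20. Cebpd in control 3 was 223 CPM, and its gap to the next control was 0.712 of the group's range against a critical value of 0.71. Its deposited RPKM in that sample was 24.2, with 16.2 to 26.0 over the controls, but RPKM cannot be compared between these samples. The depth total behind the RPKM was 3.51 times the summed gene counts in control 3 and 1.78 to 2.1 times in the other controls. Control 3 was also the highest control for Cebpb (96.7 CPM), Cebpg (143 CPM) and Cebpz (233 CPM) and the lowest for Ddit3 (9.24 CPM). Ddit3 in replicate 4 at 405 min was 38.4 CPM, with a gap of 0.856 of the range against a critical value of 0.829, and it lay below control 5 (40.9 CPM).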

How the results depend on the processing

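Cebpd stayed below control at 45, 135 and 405 min in each alternative run, but its value moved: to -0.24 (within library set 2) and -1.57 (GC offset) at 45 min, to -1.40 (within set 2), -3.10 (GC offset) and -3.07 (replicate block with GC offset) at 405 min, and between 405 and 135 min to 0.95 (library set as covariate), 0.46 (within set 1), 0.092 (GC offset) and 0.12 (replicate block with GC offset). Its share of Cebpd plus Cebpb moved to -1.1 percentage points from control at 45 min within set 2 and to -29.2 at 405 min within set 1. Cebpb at 135 min passed with DESeq2 (-1.04), library set as covariate (-1.14) and within set 1 (-1.18), and ranged from -1.18 to -0.83 with 1 library left out. Cebpb at 405 min did not pass within set 1 (-0.91), within set 2 (-0.76) or with the replicate block and GC offset (-1.92), and its difference between 405 and 135 min turned to 0.21 (library set as covariate) and 0.27 (within set 1). Cebpg turned to 0.10 at 45 min within set 2, passed at 135 min with library set as covariate (-0.68), did not pass at 405 min within set 1 (-0.87) or set 2 (-0.44), and passed between 405 and 135 min with only the compared groups (-0.61). Cebpz turned to 0.019 at 135 min with the GC offset (range -0.14 to 0.025 with 1 library left out, positive without control 3). At 405 min Cebpz did not pass when the other groups were left out of the fit (-0.66), with library set as covariate (-0.40), within set 1 (-0.52), within set 2 (-0.37) or with the replicate block (-0.73, adjusted p = 0.057, edgeR), and ranged from -0.74 to -0.59 with 1 library left out. Between 405 and 135 min Cebpz passed with DESeq2 (-0.62) and only the compared groups (-0.63), with a range of -0.68 to -0.54. Ddit3 at 405 min turned to -0.22 (library set as covariate), -0.36 (within set 2) and -0.066 (GC offset), and ranged from -0.20 to 0.19 with 1 library left out. The cause of these moves was not tested, and within a set 1 or 2 samples can remain in a group.

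Over all genes, 0 passed at 45 min, 150 at 135 min, 2409 at 405 min and 520 between 405 and 135 min. DESeq2 gave 6 at 45 min, 430 at 135 min and 1504 between 405 and 135 min, and the GC offset 2, 269 and 890. Library set as covariate gave 4, 815 and, at 405 min, 1340. Without a filter on low counts 80 passed at 135 min and 207 between 405 and 135 min. With only the compared groups the counts were 40, 812 and 3204 at 135 min, at 405 min and between both. Within set 1 they were 577, 215 and 0, and within set 2 482 at 405 min. With the replicate block, which the check of pairing did not call for, they were 31, 800 and 15, and with the GC offset added 81, 1532 and 212. Leaving out 1 library gave 43 (without replicate 1 at 135 min) to 297 (without control 2) at 135 min, 959 (without replicate 4 at 405 min) to 4980 (without control 2) at 405 min, and 42 (without replicate 2 at 135 min) to 1375 (without control 2) between both. The block changed no other call of the members. Of the named list genes past the threshold, 0 of 8 at 135 min and 10 of 24 at 405 min passed with the block, and 0 and 12 with only the compared groups. A fit within set 2 that includes 135 min could not be run, since that set holds no such library. Depth limits the reading of Cebpa and Cebpe, whose highest count per library was 3.998.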
